A study of Mus musculus with 16 samples.

Results

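The mitochondrially encoded genes are the 37 genes of the mouse mitochondrial genome, found here as every gene whose symbol starts with mt-, out of 55416 gene IDs in the count table. They fall into 13 messenger RNAs, 2 ribosomal RNAs and 22 transfer RNAs, and the 3 classes are described apart. They were followed in mouse macrophages of the Hoxb8 cell line, cells grown from bone marrow progenitors kept dividing by the homeobox factor Hoxb8. The 4 groups, of 4 libraries each, were macrophages alone and macrophages given apoptotic human Jurkat cells (a T cell leukemia line) for 45, 90 or 180 min. All 16 libraries came from total RNA depleted of ribosomal RNA. The labels say neither how many clones the line holds nor when the macrophages alone were harvested, and they do not say whether a group's libraries came from different cultures. The p-values therefore measure the spread between these libraries, which may be technical.

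The mitochondrial genome is a small circle present in many copies in each cell. A single mitochondrial RNA polymerase, Polrmt, transcribes each strand as a long precursor. Transfer RNAs lie between most of the other genes, and their excision by nucleases frees the messenger and ribosomal RNAs. The messenger RNAs encode core subunits of respiratory complexes I, III and IV and of the ATP synthase, and the ribosomal and transfer RNAs serve their translation inside the organelle. All but one of the messenger RNAs are read from the heavy strand, and mt-Nd6 is read from the light strand. Macrophages that take up apoptotic cells, a process called efferocytosis, are known to alter mitochondrial metabolism while they digest the cargo.

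Total counts per library ranged from 18.7 to 27.7 M (M, 1000000) in macrophages alone, from 24.4 to 41.7 M at 45 min, from 13.6 to 17.4 M at 90 min and from 10.7 to 23.4 M at 180 min. Of all genes, 14168 passed the filter on low counts and were tested. All 14 macrophage markers reached 1 CPM in every group. CPM are counts per 1000000 of the scaled library size, but of the unscaled total for the markers in this paragraph. Of 19 T cell markers, 7 had 0 counts in every library (Cd3e, Cd3g, Cd2, Cd7, Ptcra, Bcl11b and Trbc2), and the other 12, such as Lck, Lat, Cd3d, Trac and Zap70, had at least 1. Cd3d was at 0.210 CPM at 180 min and 0 CPM in macrophages alone. The summed level of the T cell list was 0.470 to 1.49 CPM in macrophages alone, 0.575 to 1.78 CPM at 45 min, 1.47 to 2.32 CPM at 90 min and 2.31 to 4.21 CPM at 180 min. How reads from the human cells were handled is not given in the sources used here, and their part in the mitochondrial counts was not tested.

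Of the 37 mitochondrial genes, 12 could be followed. Of the 13 messenger RNAs, 7 passed the filter (mt-Nd1, mt-Nd2, mt-Nd4, mt-Nd5, mt-Nd6, mt-Cytb and mt-Co1). The 6 that did not were close to empty: mt-Co3 had 36 counts summed over all 16 libraries, mt-Co2 had 26, mt-Atp6 14, mt-Atp8 2, mt-Nd4l 1 and mt-Nd3 0. Both ribosomal RNAs passed. Of the 22 transfer RNAs, 3 passed (mt-Tw, mt-Tp and mt-Tq), 7 others had a few counts (at most 15 in a library), and 12 had 0 counts in every library (mt-Tf, mt-Tv, mt-Tl1, mt-Tn, mt-Ts1, mt-Td, mt-Tk, mt-Tg, mt-Tr, mt-Th, mt-Ts2 and mt-Tl2). A count of 0 allows a level of up to 0.0720 CPM in the deepest library and up to 0.281 CPM in the shallowest (unscaled totals, counting error only).

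The 6 near-empty messenger RNAs are neighbours. They form an unbroken run along the genome between mt-Co1 and mt-Nd4, and with the 5 transfer RNAs among them they hold 79 counts in all. The nuclear genome carries copies of this stretch. In GENCODE M21 (build GRCm38), 7 pseudogenes follow one another on chromosome 1, all on the minus strand, over 4663 bases and with no other annotated gene between them, in the mitochondrial order from mt-Co1 to mt-Nd4. Gm28661 matched mt-Co2 over 681 bases, Gm10925 matched mt-Atp6 over 678 bases and Gm28437 matched mt-Co3 over 783 bases, each with 0 mismatches. Gm28438 matched mt-Nd3 over 345 bases with 1 mismatch, and Gm10222 matched mt-Nd4l over 294 bases with 0. The first 60 bases of 2 of these genes and of their copies are shown because a read from them matches both places, and no base is in capitals because none differs.
mt-Co2: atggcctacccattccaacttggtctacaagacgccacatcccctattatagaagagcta
Gm28661: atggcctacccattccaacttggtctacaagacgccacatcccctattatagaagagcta
mt-Atp6: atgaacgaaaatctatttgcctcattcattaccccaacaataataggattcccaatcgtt
Gm10925: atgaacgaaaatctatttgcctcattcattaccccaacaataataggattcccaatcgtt

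The copies at the edges of this stretch covered only part of a gene. Gm29216 matched 483 bases of mt-Co1 with 1 mismatch, and Gm28439 matched 876 bases of mt-Nd4 with 0. On chromosome 2, Gm13340 matched all 1545 bases of mt-Co1 but with 37 mismatches, an identity of 97.6%. The window of mt-Co1 with the most differences, bases 460 to 519 of the transcript, is shown with the 4 differing bases in capitals, as the kind of sequence that does tell the gene from its copy.
mt-Co1: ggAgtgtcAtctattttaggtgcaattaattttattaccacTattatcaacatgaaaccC
Gm13340: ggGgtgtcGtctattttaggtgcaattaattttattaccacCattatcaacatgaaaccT

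The share of a gene's sequence found nowhere else was measured. Of all 50-base stretches of a gene, those in no annotated nuclear transcript made up 0.00% for mt-Co2, 0.136% for mt-Co3, 0.475% for mt-Atp6, 1.21% for mt-Nd4l and 2.01% for mt-Nd3. They made up 37.8% for mt-Nd4, 48.9% for mt-Co1, 91.8% for mt-Nd2 and 92.4% for mt-Nd5, and all of mt-Nd1, mt-Nd6, mt-Cytb and mt-Rnr1. The 5 messenger RNAs with the least unshared sequence were thus among the 6 near-empty ones. Among the others, counts and unshared sequence did not go together: mt-Co1 had the most counts of the messenger RNAs, 701464 over all libraries, and mt-Nd6 had 3895, fewer than mt-Nd4 with 13361. mt-Atp8 had 2 counts although all of its stretches were unshared by this measure. This gene of 204 bases lies inside the copied run, where its copy, if any, is not annotated as a transcript. The 11 nuclear copies found hardly took up counts either, at most 124 over all libraries. How the counting treated reads that map to several places is not given in the sources used here, and its part in the low counts was not tested. The levels of mt-Co1 and mt-Nd4 are therefore uncertain, and nothing can be said of the expression of the 6 near-empty genes.

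**Figure D1:**
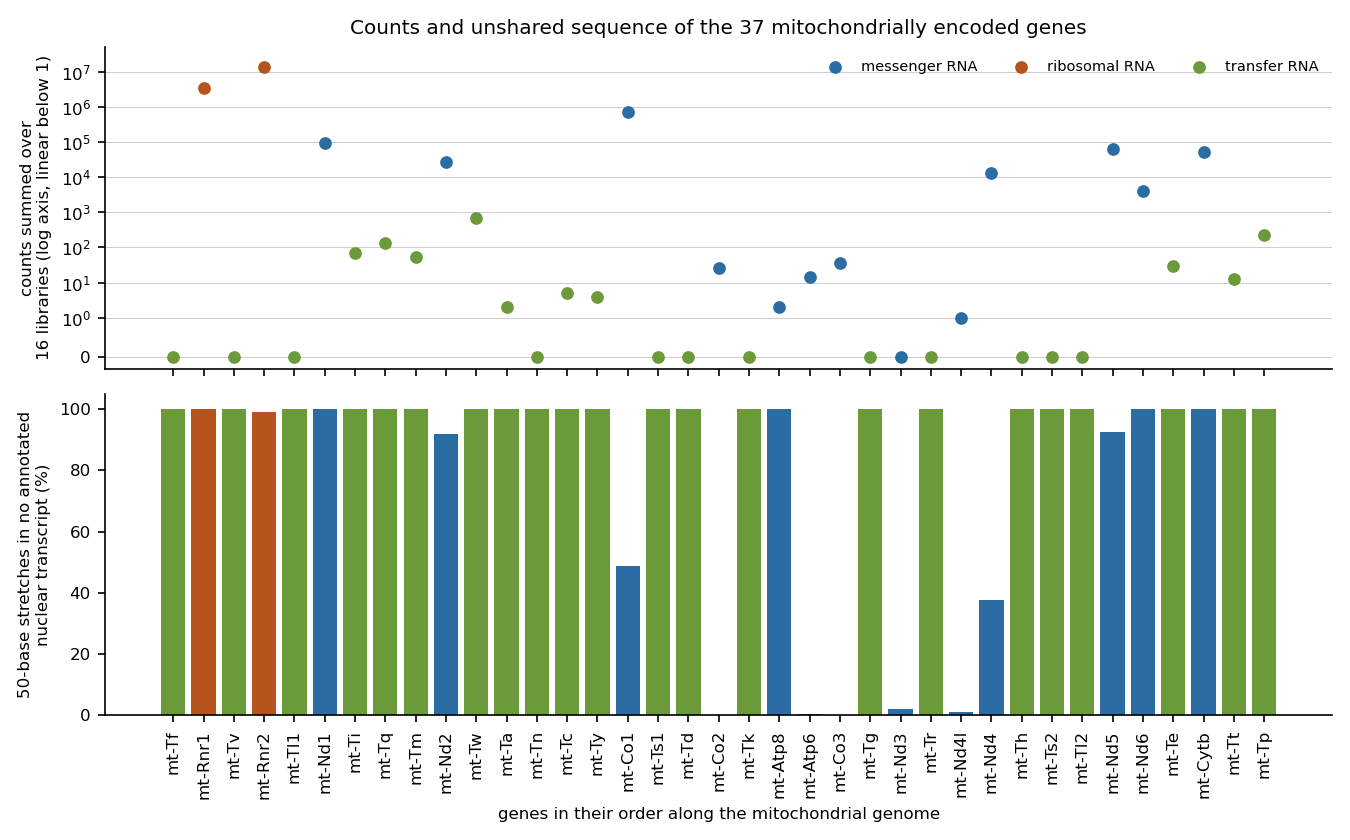
Counts summed over the 16 libraries (top, log axis that is linear below 1) and the percent of each gene's 50-base stretches found in no annotated nuclear transcript (bottom, %) for the 37 mitochondrial genes in genome order, coloured by class. The run from mt-Co2 to mt-Nd4l stands at 36 counts or fewer, and 5 of its 6 messenger RNAs have 2.01% or less of unshared stretches.

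The transfer RNAs share no 50-base stretch with an annotated nuclear transcript. The 5 between mt-Co1 and mt-Nd4 lie inside the copied run, where their copies, if any, are not annotated as transcripts. They are 59 to 75 bases long, and the recovery of RNA of this size was not tested. The 3 that could be tested are printed with the anticodon in capitals. The transfer RNA for tryptophan, mt-Tw, is read from the heavy strand, and those for proline, mt-Tp, and glutamine, mt-Tq, from the light strand.
mt-Tw: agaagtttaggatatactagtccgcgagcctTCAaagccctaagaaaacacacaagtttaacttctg
mt-Tp: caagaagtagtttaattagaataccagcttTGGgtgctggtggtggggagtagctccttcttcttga
mt-Tq: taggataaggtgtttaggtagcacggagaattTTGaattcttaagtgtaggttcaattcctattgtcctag

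Against macrophages alone, whose harvest time is not given, the changes went in 2 directions. After 45 min with apoptotic cells, both ribosomal RNAs and 6 of 7 tested messenger RNAs were lower than in macrophages alone, by 1.16 to 1.39 times. After 90 min all 9 were higher than in macrophages alone, and after 180 min the rise had reached 1.51 to 2.59 times. Over the 3 times together, 11 of the 12 tested mitochondrial genes changed by edgeR's quasi-likelihood test, against 44.6% of all genes tested. The exception was mt-Tq (edgeR adjusted p = 0.170). In RNA of a whole culture, fewer cells of a type and less RNA per cell cannot be told apart. The summed level of the 14 macrophage markers was 11810 to 12080 CPM in macrophages alone, 12810 to 13870 CPM at 45 min, 11490 to 11920 CPM at 90 min and 10830 to 12410 CPM at 180 min. Of these markers 6 were higher and 0 lower at 45 min than in macrophages alone, beside 4.69% and 6.11% of all genes tested. The higher ones included Cd14 by 0.39, Lyz2 by 0.23 and C1qb by 0.21 on the log2 scale. At 180 min 2 markers were higher and 6 lower than in macrophages alone, beside 2139 and 2265 of the 14168 genes tested. At 45 min the summed marker level was above that of macrophages alone, and at 180 min the marker ranges overlapped. Lyz2 made up much of this sum, with 5120 CPM in macrophages alone and 5973 CPM at 45 min (unscaled totals, as in the sum). On the same unscaled totals, Mertk (87.6 and 80.6 CPM) and Mrc1 (47.4 and 43.1 CPM) were lower on average at 45 min, and they were not called. The part of cell numbers in the mitochondrial changes was not tested.

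As shares of all counts, mitochondrial genes took 4.21 to 4.71% in the libraries of macrophages alone, 3.34 to 3.76% at 45 min, 5.12 to 6.40% at 90 min and 6.44 to 7.75% at 180 min, with no overlap between any 2 groups. Messenger RNAs took 0.221 ± 0.0239% in macrophages alone, 0.179 ± 0.00673% at 45 min, 0.319 ± 0.0224% at 90 min and 0.428 ± 0.0640% at 180 min (SD, n = 4 each). Ribosomal RNAs, in spite of the depletion, took 4.23 ± 0.217%, 3.36 ± 0.181%, 5.57 ± 0.532% and 6.57 ± 0.555% in the same 4 groups. The shares held by the ribosomal RNA and the messenger RNA with the most counts moved little by comparison. mt-Rnr2 held 74.7 ± 0.397% of all mitochondrial counts at 180 min and 76.2 ± 0.329% in macrophages alone, which is the whole span of the 4 group means. mt-Co1 held 73.2 ± 1.46% of the messenger RNA counts at 180 min, against 74.8 ± 0.608% in macrophages alone. Transfer RNAs made up 0.000650% of counts at 90 min, the highest of the groups, and 0.000194% in macrophages alone, the lowest.

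Per kilobase of transcript, the 9 ribosomal and messenger RNAs tested stood in the same order at 180 min as in macrophages alone. In macrophages alone mt-Rnr2 stood at 21504 ± 1100.0 CPM per kilobase and mt-Rnr1 at 8784 ± 437 CPM per kilobase. mt-Co1 followed at 1072 ± 107 CPM per kilobase, mt-Nd1 at 214 ± 33.2, mt-Cytb at 94.6 ± 11.8, mt-Nd5 at 80.8 ± 6.87, mt-Nd2 at 55.6 ± 4.48, mt-Nd4 at 23.1 ± 3.11 and mt-Nd6 at 14.4 ± 3.91 (SD, n = 4 each). In macrophages alone the libraries of mt-Cytb and mt-Nd5 overlapped in this level, and those of the other neighbours in the order did not. At 180 min those of mt-Nd4 and mt-Nd6 overlapped as well. Per 1000 unshared 50-base stretches instead of per kilobase, mt-Co1 stood at 2265 CPM, and mt-Nd4 at 63.5 CPM was next to mt-Nd2 at 63.6 CPM. The level of a ribosomal RNA here is what the depletion left.

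The large-subunit ribosomal RNA, mt-Rnr2, had the smallest SE of the tested members. Its levels were 32846, 36185, 32399 and 34648 CPM in the 4 libraries of macrophages alone, 28574, 27152, 26406 and 25405 CPM at 45 min, 39086.5, 45062, 45579.6 and 48001 CPM at 90 min, and 47399, 56448, 53573 and 48633 CPM at 180 min. Every library at 45 min lay below every library of macrophages alone, and every library at 90 and 180 min above it. Against macrophages alone, the log2 fold change was -0.34 (SE 0.040, edgeR adjusted p = 2.36e-09) at 45 min, 0.39 (SE 0.040, adjusted p = 1.17e-11) at 90 min and 0.60 (SE 0.040, adjusted p = 1.61e-19) at 180 min.

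The small-subunit ribosomal RNA, mt-Rnr1, moved with it. Its levels were 7956, 8856, 8131 and 8612 CPM in macrophages alone, 7813, 7146, 6867 and 6396 CPM at 45 min, 8662, 12244, 12712 and 12679 CPM at 90 min, and 12494, 14711, 13637 and 12030.3 CPM at 180 min. One library at 90 min, the first, lay within the range of macrophages alone, and the other 3 were well above it. The log2 fold change against macrophages alone was -0.25 (SE 0.059, edgeR adjusted p = 0.00217) at 45 min, 0.46 (SE 0.059) at 90 min and 0.66 (SE 0.059) at 180 min. Since libraries were depleted of ribosomal RNA, the efficiency of that depletion enters both values, and its part was not tested.

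Among messenger RNAs, mt-Co1, the core subunit of cytochrome c oxidase (complex IV), had the most counts. Its levels were 1794, 1633, 1431 and 1765 CPM in macrophages alone, 1291, 1386, 1299 and 1366 CPM at 45 min, 2311, 2403, 2179 and 2535 CPM at 90 min, and 2445, 3681, 3127 and 3122 CPM at 180 min. The 4 libraries at 45 min lay below all those of macrophages alone, while the lowest at 180 min fell within the range at 90 min. The log2 fold change against macrophages alone was -0.31 (SE 0.058, edgeR adjusted p = 0.000109) at 45 min, 0.51 (SE 0.059, adjusted p = 4.14e-10) at 90 min and 0.90 (SE 0.059, adjusted p = 8.85e-20) at 180 min. mt-Cytb, the mitochondrial subunit of complex III, had 124, 102, 92.6 and 114 CPM in macrophages alone, 91.5, 93.9, 86.0 and 95.2 CPM at 45 min, 152, 190, 162 and 191 CPM at 90 min, and 193, 283, 237 and 240 CPM at 180 min. Its range at 45 min overlapped that of macrophages alone, and every library at 180 min exceeded every library at 90 min.

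The complex I subunits gave the other 5 tested messenger RNAs. mt-Nd1 had 243, 196, 167 and 215 CPM in macrophages alone, 186, 184, 167 and 172 CPM at 45 min, 263, 311, 322 and 357 CPM at 90 min, and 389, 467, 416 and 391 CPM at 180 min. Its 45 min libraries sat in the lower part of the range of macrophages alone, and the ranges at 45, 90 and 180 min did not overlap each other. mt-Nd2 averaged 57.7 ± 4.65 CPM in macrophages alone, 50.5 ± 1.36 CPM at 45 min, 95.1 ± 16.01 CPM at 90 min and 116 ± 5.01 CPM at 180 min. mt-Nd5 averaged 147 ± 12.5 CPM, 118 ± 13.5 CPM, 208 ± 22.8 CPM and 278 ± 41.4 CPM in the same 4 groups, and mt-Nd4 averaged 31.9 ± 4.29 CPM, 25.3 ± 2.08 CPM, 44.6 ± 8.87 CPM and 58.7 ± 8.25 CPM (SD, n = 4 each). All 3 had their lowest mean at 45 min and their highest at 180 min.

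**Figure D2:**
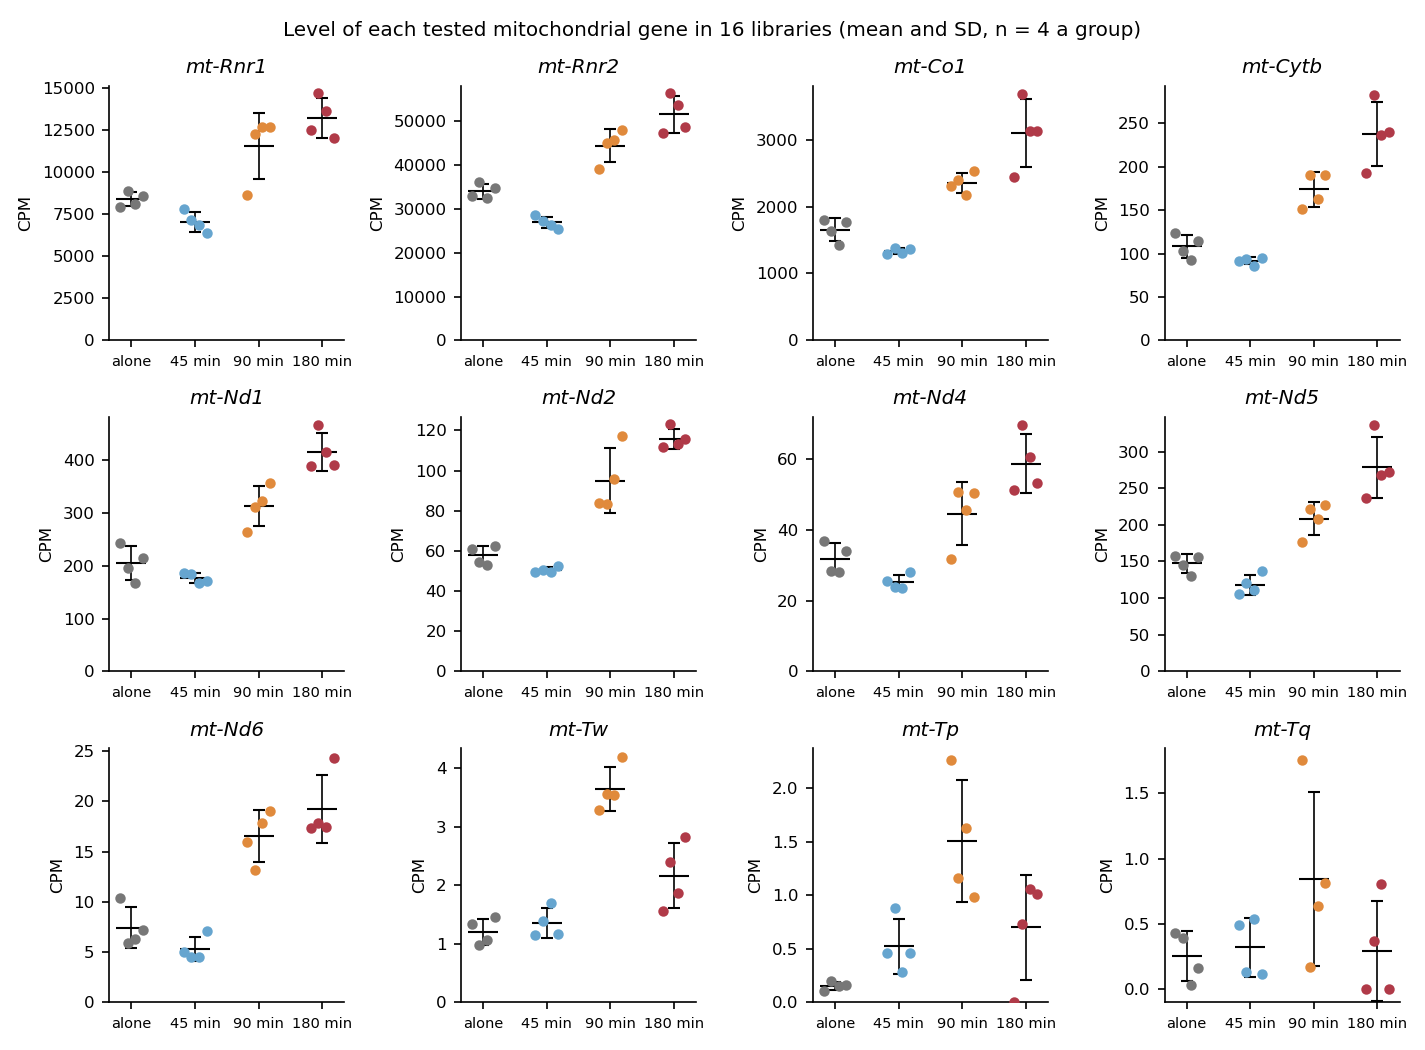
Level of each of the 12 tested mitochondrial genes in CPM in each library (points), with the group mean and SD (bars), n = 4 a group; each axis starts at or just below 0. The ribosomal and messenger RNAs dip at 45 min and stand highest at 180 min, while the mt-Tw and mt-Tp means stand highest at 90 min.

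At 45 min against macrophages alone, 6 of 7 tested messenger RNAs and both ribosomal RNAs fell, where 6.11% of all genes tested were lower and 4.69% higher. The median log2 fold change of the 7 messenger RNAs was -0.31, and that of all genes tested was 0.00. The called changes were -0.21 (SE 0.066, edgeR adjusted p = 0.0285) for mt-Nd1, -0.24 (SE 0.071, adjusted p = 0.0198) for mt-Cytb, -0.31 for mt-Co1, -0.31 (SE 0.069, adjusted p = 0.00102) for mt-Nd5, -0.33 (SE 0.096, adjusted p = 0.0168) for mt-Nd4 and -0.48 (SE 0.15, adjusted p = 0.0316) for mt-Nd6. mt-Nd2 had a log2 fold change of -0.19 (SE 0.069) and missed the threshold (edgeR adjusted p = 0.0622), although its 4 libraries at 45 min lay below those of macrophages alone. Values of 2 groups did not overlap for 3 of the 7 messenger RNAs and both ribosomal RNAs, as for 16.9% of all genes tested.

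These early calls were small, and several rested on single libraries. Without library 1 or library 4 of macrophages alone, or without library 1 or library 3 at 45 min, 2 messenger RNAs remained called, mt-Co1 and mt-Nd5. In the fit without library 1 of macrophages alone, the change of mt-Nd1 was -0.11 in place of -0.21 and that of mt-Nd6 was -0.26 in place of -0.48. Without library 2 at 45 min the calls of mt-Nd4 and mt-Nd6 were lost, and without library 2 of macrophages alone, library 4 at 45 min or library 3 at 90 min that of mt-Nd1. mt-Nd2 passed the threshold in 5 of 24 alternatives, among them without library 4 at 90 min (-0.17) and with only the 2 groups compared (-0.20). mt-Cytb lost its call with libraries thinned to the smallest total (edgeR adjusted p = 0.0615). DESeq2 kept mt-Co1 and mt-Rnr2 as the only lower members. Both of these stayed called in all 24 alternatives, with mt-Co1 between -0.36 and -0.26 and mt-Rnr2 between -0.35 and -0.29.

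At 90 min against macrophages alone, all 7 tested messenger RNAs and both ribosomal RNAs rose, where 11.1% of all genes tested were higher and 9.97% lower. The median log2 fold change of the messenger RNAs was 0.61. The changes were 0.49 (SE 0.097) for mt-Nd4, 0.50 (SE 0.070) for mt-Nd5, 0.51 for mt-Co1, 0.61 (SE 0.067) for mt-Nd1, 0.69 (SE 0.071) for mt-Cytb, 0.72 (SE 0.069) for mt-Nd2 and 1.15 (SE 0.15) for mt-Nd6. Groups did not overlap for 6 of the 7, all but mt-Nd4, as for 21.2% of all genes tested. These 9 calls held in all 24 alternatives.

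At 180 min against macrophages alone, the same 9 genes were higher, where 31.1% of all genes tested were called and 15.1% were higher. The median log2 fold change of the 7 messenger RNAs was 1.01, against 0.01 over all genes tested. The changes were 0.88 (SE 0.095) for mt-Nd4, 0.90 for mt-Co1, 0.91 (SE 0.069) for mt-Nd5, 1.01 (SE 0.069) for mt-Nd2, 1.02 (SE 0.067) for mt-Nd1, 1.14 (SE 0.071, edgeR adjusted p = 1.24e-20) for mt-Cytb and 1.37 (SE 0.15, adjusted p = 1.43e-11) for mt-Nd6. None of the 7 overlapped with macrophages alone, as for 28.6% of all genes tested. The T cell marker Cd5, the only one of that list above 1 CPM, averaged 1.76 ± 0.400 CPM at 180 min and 0.456 ± 0.309 CPM in macrophages alone (SD, n = 4 each), and its part in these values was not tested.

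**Figure D3:**
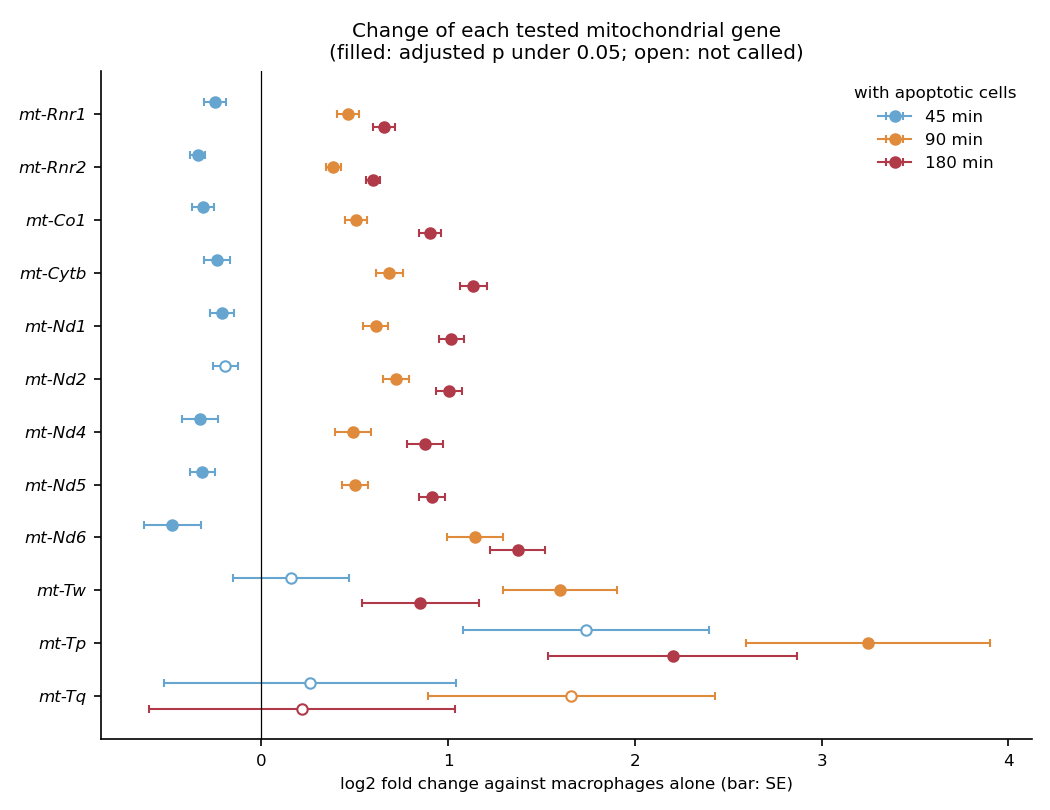
Log2 fold change of the 12 tested mitochondrial genes against macrophages alone at 45, 90 and 180 min, from edgeR, with bars of 1 SE; filled points have an adjusted p under 0.05. At 45 min the ribosomal and messenger RNAs lie left of 0, and at 90 and 180 min all 9 lie right of it.

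Of 3 comparisons, 90 min against 45 min had the largest median change of the messenger RNAs, 0.82. The others had 0.39 at 180 min against 90 min and -0.31 at 45 min against macrophages alone. The harvest time of macrophages alone is not given, so the last is not a known step in time. At 90 min against 45 min all 7 messenger RNAs and both ribosomal RNAs rose, where 14.8% of all genes tested were higher and 13.3% lower, and none of the 9 overlapped, as for 25.1% of all genes. On the log2 scale, mt-Nd1, mt-Nd4, mt-Nd5 and mt-Co1 each rose by 0.82. mt-Nd2 rose by 0.91, mt-Cytb by 0.92 and mt-Nd6 by 1.62 (SE 0.15, edgeR adjusted p = 4.16e-13). The ribosomal RNAs rose by 0.71 for mt-Rnr1 and 0.72 for mt-Rnr2.

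At 180 min against 90 min the rise went on at a slower pace. It covered 6 of 7 messenger RNAs and both ribosomal RNAs, where 4.45% of all genes tested were higher and 6.97% lower. The messenger RNAs rose by 0.28 for mt-Nd2 (SE 0.068, edgeR adjusted p = 0.00202), 0.38 for mt-Nd4, 0.39 for mt-Co1, 0.41 for mt-Nd1, 0.41 for mt-Nd5 and 0.45 for mt-Cytb (SE 0.070, adjusted p = 1.32e-06). mt-Nd6 had a change of 0.23 (SE 0.14, edgeR adjusted p = 0.366). With DESeq2 mt-Nd4 missed the threshold (adjusted p = 0.0505), which left 5 of 7 messenger RNAs. The groups did not overlap for 4 of the 7 messenger RNAs and for neither ribosomal RNA, as for 12.3% of all genes tested. mt-Rnr2 rose by 0.21 (SE 0.040) and mt-Rnr1 by 0.19 (SE 0.059, edgeR adjusted p = 0.0207). The call of mt-Rnr1 was lost without library 1 at 90 min, where its change was 0.08, and without library 2 at 180 min, where it was 0.14. Over the widest interval, 180 min against 45 min, the 9 genes were higher by 0.91 to 1.85, where 36.4% of all genes tested were called and 18.3% were higher, and none of the 9 overlapped, as for 32.3% of all genes.

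The light-strand messenger RNA, mt-Nd6, a subunit of complex I, had the largest change of the 7 at 90 and 180 min against macrophages alone. At 45 min it had the largest change with all libraries but not without library 1 of macrophages alone (-0.26). Its levels were 10.4, 5.95, 6.27 and 7.19 CPM in macrophages alone, 5.04, 4.56, 4.53 and 7.07 CPM at 45 min, 15.99, 13.2, 17.9 and 19.1 CPM at 90 min, and 17.4, 17.8, 17.5 and 24.3 CPM at 180 min. All libraries at 90 and 180 min lay above all others, and those at 45 min overlapped with macrophages alone. Whether it moved apart from the heavy-strand messenger RNAs was tested by its ratio to their sum within each library. Per 1000 counts of the other 12 messenger RNAs it had 3.35 ± 0.669 counts in macrophages alone, 2.94 ± 0.611 at 45 min, 5.19 ± 0.807 at 90 min and 4.65 ± 0.978 at 180 min (SD, n = 4 each). The log2 ratio was higher by 0.64 at 90 min than in macrophages alone (exact two-sided permutation test p = 0.0571, 4 libraries each), with 1 library of macrophages alone reaching into the range at 90 min. It was higher by 0.83 at 90 min than at 45 min (exact permutation p = 0.0286, the smallest that 4 against 4 allows), in 4 of 4 libraries. After adjustment over the 12 comparisons of ratios, neither passed the threshold (both adjusted p = 0.171). With so few libraries the adjusted test could hardly pass, since 7 of the 12 comparisons would have to reach the smallest p and 2 did. Whether the counting used the strand is not given in the sources used here, so reads of mt-Nd6 and of heavy-strand RNA across the same place cannot be told apart.

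The 2 ribosomal RNAs, cut from one precursor, had group mean ratios of 247 to 262 mt-Rnr1 counts per 1000 of mt-Rnr2. Single libraries ran from 222 to 279, both at 90 min. mt-Rnr1 had 262 ± 8.96 counts per 1000 of mt-Rnr2 at 45 min, against 247 ± 3.90 in macrophages alone (SD, n = 4 each). The log2 ratio was 0.09 higher, in 4 of 4 libraries (exact two-sided permutation p = 0.0286, adjusted p = 0.171). At 90 min the mean was 259 ± 25.7 and at 180 min 257 ± 7.17. The library with the lowest ratio of all, 222, was the first at 90 min. Messenger RNA counts per 1000 ribosomal RNA counts were 52.3 ± 5.79 in macrophages alone, 53.3 ± 4.25 at 45 min, 57.6 ± 4.72 at 90 min and 65.0 ± 5.92 at 180 min, with the ranges at 180 min (57.5 to 69.9) and in macrophages alone (47.1 to 59.5) overlapping.

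**Figure D4:**
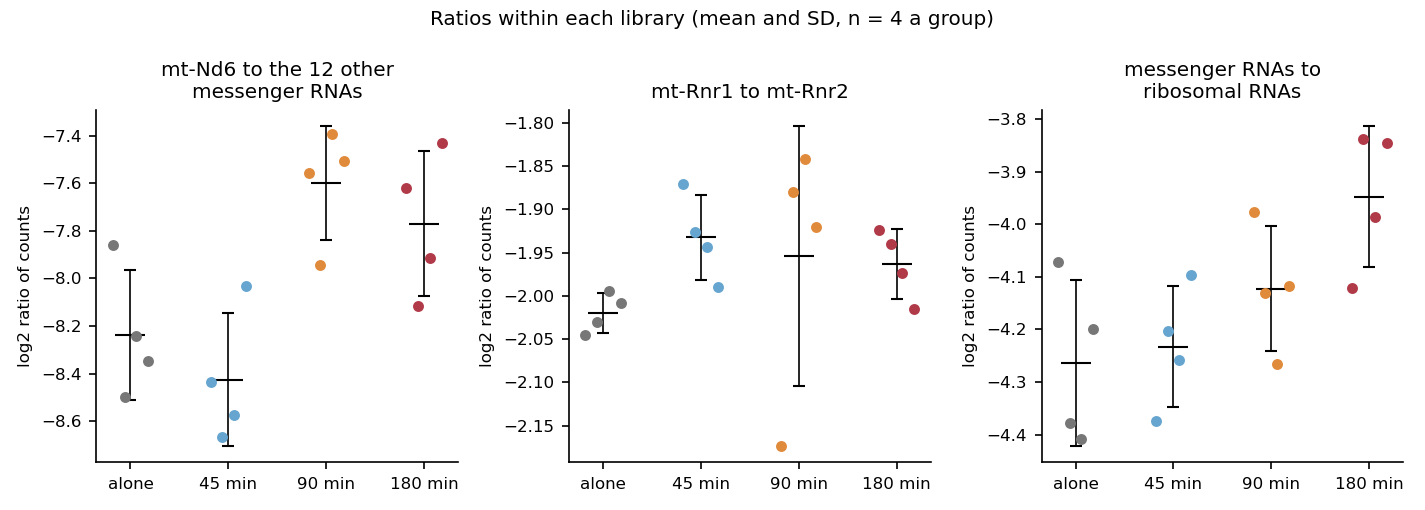
Log2 ratio of counts within each library (points) with the group mean and SD (bars), n = 4 a group: mt-Nd6 to the 12 other messenger RNAs (left), mt-Rnr1 to mt-Rnr2 (middle) and all messenger RNAs to both ribosomal RNAs (right). The first ratio stands highest at 90 min, and the axes do not start at 0 because the values are logs.

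The transfer RNAs rested on few counts, and their means stood highest at 90 min. mt-Tw had 37, 25, 28 and 27 counts in the libraries of macrophages alone, 35, 41, 41 and 48 at 45 min, 45, 61, 50 and 72 at 90 min, and 23, 26, 44 and 67 at 180 min. In CPM this was 1.205 ± 0.223 in macrophages alone, 1.35 ± 0.255 at 45 min, 3.64 ± 0.381 at 90 min and 2.16 ± 0.556 at 180 min (SD, n = 4 each). Every library at 90 min lay above all other libraries. Against macrophages alone the log2 fold change was 0.16 (SE 0.31, edgeR adjusted p = 0.830) at 45 min, 1.60 (SE 0.31, adjusted p = 5.30e-05) at 90 min and 0.85 (SE 0.31, adjusted p = 0.0301) at 180 min. The call at 180 min was lost in 6 of 24 alternatives, among them those without library 2 or 3 of macrophages alone and without library 2 or 4 at 180 min, where the change was 0.69 to 0.81. At 180 min against 90 min the change was -0.75 (SE 0.30, edgeR adjusted p = 0.103).

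mt-Tp had 3, 5, 4 and 3 counts in macrophages alone, 14, 26, 7 and 19 at 45 min, 31, 20, 23 and 17 at 90 min, and 0, 8, 25 and 24 at 180 min. Library 1 at 180 min had 0 counts, which allows a level of up to 0.208 CPM (unscaled total), and the other 3 lay above all libraries of macrophages alone. In CPM the means were 0.154 ± 0.0361 in macrophages alone, 0.523 ± 0.254 at 45 min, 1.51 ± 0.570 at 90 min and 0.702 ± 0.490 at 180 min (SD, n = 4 each). Against macrophages alone the log2 fold change was 1.74 (SE 0.66, edgeR adjusted p = 0.0808; 0.0453 without library 1 at 180 min and 0.0385 with DESeq2) at 45 min, 3.25 (SE 0.65, adjusted p = 0.000118) at 90 min and 2.204 (SE 0.67, adjusted p = 0.00773) at 180 min. These folds rest on 15 counts summed over the 4 libraries of macrophages alone. At 90 min against 45 min it rose by 1.51 (edgeR adjusted p = 0.0378), a call that was lost without library 1, 3 or 4 at 45 min or without library 1 or 3 at 90 min (1.23 to 1.45).

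mt-Tq had 1 to 12 counts in macrophages alone, 4 to 15 at 45 min, 3 to 24 at 90 min and 0 to 19 at 180 min, with overlapping ranges, and it passed the threshold in none of the 6 comparisons. Of the transfer RNAs tested, 2 of 3 were called higher at 90 min and at 180 min against macrophages alone, where 11.1% and 15.1% of all genes tested were higher. At 90 min against 45 min 2 of 3 were higher, beside 14.8% of all genes. At 180 min 0 of 3 were higher against 90 min or against 45 min, beside 4.45% and 18.3% of all genes. For mt-Tw at 180 min against 45 min the change was 0.69 (edgeR adjusted p = 0.0681, and 0.0429 without library 1 at 180 min). At 180 min against 90 min all 3 changes were negative, -0.75 for mt-Tw, -1.04 for mt-Tp and -1.44 for mt-Tq, and none was called.

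The nuclear genes that serve the mitochondrial genome were set beside these values in lists chosen by function. Of 20 genes for transcription and replication of mitochondrial DNA, 0 were called at 45 min, 3 were higher and 1 lower at 90 min, and 5 were higher and 0 lower at 180 min, each against macrophages alone. Of all genes tested, 10.8% were called at 45 min, and 11.1% were higher and 9.97% lower at 90 min. At 180 min the catalytic subunit of the mitochondrial DNA polymerase, Polg, was higher by 0.41 (SE 0.062, edgeR adjusted p = 2.22e-07), its accessory subunit Polg2 by 0.95 (SE 0.19) and the single-stranded DNA-binding protein Ssbp1 by 0.46 (SE 0.10). The list's median log2 fold change at 180 min was 0.12. The share higher, 5 of 20, stood beside 15.1% of all genes tested.

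Among 34 genes that process, modify or degrade mitochondrial RNA, 9 were higher and 4 lower at 180 min than in macrophages alone, where 15.1% of all genes tested were higher and 31.1% were called in either direction. Of the 14168 genes tested, 2265 were lower, and whether the list differed from them was not tested. The lower genes of the list included Pnpt1 and Lrpprc. Pnpt1, the polynucleotide phosphorylase of the mitochondrial RNA degradosome, had a log2 fold change of -0.41 (SE 0.058, edgeR adjusted p = 3.33e-08). Lrpprc, which stabilizes mitochondrial messenger RNAs, had -0.21 (SE 0.058). Pnpt1 averaged 69.5 ± 4.98 CPM at 180 min and 92.8 ± 4.62 CPM in macrophages alone (SD, n = 4 each). It was the only gene of the list called at 180 min against 90 min, with -0.36 (SE 0.059), where 11.4% of all genes tested were called. The higher genes included Trmt10c, a subunit of the nuclease that cuts at the 5′ end of transfer RNAs, by 0.35 (SE 0.086), and the pseudouridine synthase Trub2 by 0.46 (SE 0.082).

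Of 19 mitochondrial aminoacyl-tRNA synthetases, which charge the transfer RNAs, 1 was lower at 45 min, 2 were higher at 90 min, and 5 were higher and 1 lower at 180 min, each against macrophages alone. At 45 and 90 min these counts were near the shares of all genes tested, 6.11% lower and 11.1% higher, and at 180 min 15.1% of all genes were higher. The methionyl-tRNA synthetase Mars2 was lower at 45 min and higher at both later times, with log2 fold changes of -0.56 (SE 0.17, edgeR adjusted p = 0.0217) at 45 min, 0.98 (SE 0.16) at 90 min and 0.93 (SE 0.16) at 180 min. Of 16 translation factors, 1 was lower at 45 min, 3 were higher and 1 lower at 90 min, and 1 was higher at 180 min. Beside them stood the same shares of all genes, with 9.97% lower at 90 min. Of 12 tested nuclear regulators of mitochondrial number, 1 was higher (Esrra) and 0 lower at 45 min than in macrophages alone. Against the same group, 1 was higher (Pprc1) and 1 lower (Pink1) at 90 min, and 1 was higher and 2 lower at 180 min. Of all genes tested, 4.69% were higher and 6.11% lower at 45 min, and 11.1% were higher and 9.97% lower at 90 min. Of the 14168 genes tested, 2139 were higher and 2265 lower at 180 min. At that time the coactivator Pprc1 was higher by 0.41 (SE 0.053, edgeR adjusted p = 3.61e-09). The transcription factor Nrf1 fell by 0.27 (SE 0.082) and Yy1 fell by 0.20 (SE 0.050).

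Where called, the nuclear-encoded subunits of the respiratory complexes changed against macrophages alone in the direction opposite to the mitochondrial ones. Of 35 tested, 6 were higher and 0 lower at 45 min, 0 higher and 6 lower at 90 min, and 0 higher and 10 lower at 180 min, each against macrophages alone. Of all genes tested, 4.69% were higher at 45 min and 9.97% were lower at 90 min. At 180 min 2265 of the 14168 genes tested were lower. Their median log2 fold changes were 0.13, -0.12 and -0.06 at these times, against -0.31, 0.61 and 1.01 for the 7 mitochondrial messenger RNAs. At 45 min the ATP synthase subunit Atp5g3 was higher by 0.25 (SE 0.064) and the complex IV subunit Cox4i1 by 0.20 (SE 0.053). At 180 min the complex IV subunit Cox6a1 fell by 0.34 (SE 0.077) and the ATP synthase subunit Atp5b fell by 0.18 (SE 0.044). At 90 min against 45 min 21 of the 35 were lower and 0 higher, beside 13.3% of all genes tested that were lower, where all 7 mitochondrial messenger RNAs were higher. The difference between the 2 sets was not tested.

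**Figure D5:**
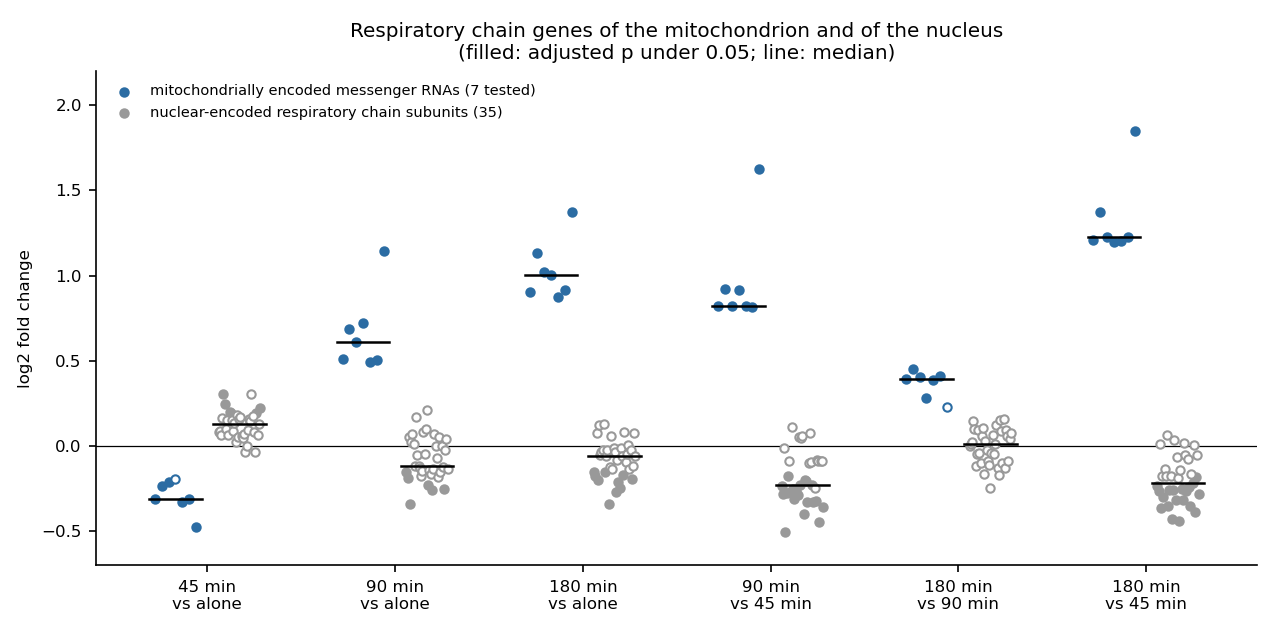
Log2 fold change in each of the 6 comparisons for the 7 tested mitochondrial messenger RNAs (blue) and 35 nuclear-encoded respiratory chain subunits (grey); filled points have an adjusted p under 0.05, and each line is a median. In 5 of the 6 comparisons the medians lie on opposite sides of 0.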

How the data were processed

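The authors deposited their gene counts, unnormalized, as 1 table over 16 libraries. The submitters' processing notes name STAR 2.7.9a, SAMtools, HTSeq and the build mm39. Per the labels' protocols, ribosomal RNA was depleted from column-purified total RNA before directional library preparation. Not given in the sources used here are the strand setting, the annotation release and the treatment of human and multiply mapped reads. Column names give each library's group but no replicate number, so libraries 1 to 4 are numbered in file order. Replicates differed by more than sampling noise (chi-square per degree of freedom 3.98 to 10.2).

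Symbols, gene order, lengths and transcript sequences came from GENCODE M21 (GRCm38), so no coordinates are printed, and symbols were found for 52083 IDs. Nuclear copies were sought with BLAST 2.17.0 (at least 100 bases, 95% identity). Counts were filtered with edgeR's filterByExpr (minimum count 10, minimum total 15) and library sizes were scaled with edgeR's TMM factors. All 16 libraries entered 1 quasi-likelihood fit (edgeR 4.0.16, R 4.3.3) with group as the only term, and p-values were Benjamini-Hochberg adjusted over 14168 genes, with calls under 0.05. The script was tested on simulated data. Log2 fold changes are unshrunken coefficients. Ratios within a library used log2 of counts plus 0.5. All mitochondrial genes past the filter are named, and of each nuclear list up to 4 called genes with the smallest p. Members, lists and tests were chosen with earlier results of these data known. DESeq2 1.42.0, other scalings and filters, thinning and leaving out each library were the alternatives.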

Additional observations from a re-analysis of the deposited data

Results flagged for a closer look

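In 3 of 80 groups of 4 libraries checked, 1 library stood apart from the other 3 by more than Dixon's 95% critical value, where chance gives about 1 in 20. The level of mt-Rnr1 at 90 min was 8662 CPM in library 1, against 12244 to 12712 CPM in the other 3. The level of mt-Nd6 at 180 min was 24.3 CPM in library 4, against 17.4 to 17.8 CPM in the other 3. The share of counts taken by transfer RNAs at 180 min was 0.000215% in library 1, against 0.000440% to 0.000456% in the other 3.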

How the results depend on the processing

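No paired analysis was possible because the columns carry no replicate numbers, so the replicate block was not run. Over all single-gene results and alternatives, 1660 kept their status as called or not called, 45 lost the call and 11 gained one. With a call in either fit, 0 reversed direction. A change of direction between uncalled fits was not counted as reversed. For example, mt-Tq at 45 min against macrophages alone had 0.26 in the main fit and -0.08 at the lowest. With DESeq2, 1 messenger RNA and 1 ribosomal RNA were lower and 1 transfer RNA higher at 45 min than in macrophages alone, 1 ribosomal RNA was higher and 1 transfer RNA lower at 180 min than at 90 min, and 1 transfer RNA was higher at 180 min than at 45 min. With no filter, 1 transfer RNA was higher at 180 min than in macrophages alone and 1 at 90 min than at 45 min, and none of the 12 low-count genes added was called. With libraries thinned to the smallest total, 0 transfer RNAs were higher at 180 min than in macrophages alone and 1 at 180 min than at 45 min. With only the 2 groups compared, 1 transfer RNA was higher at 180 min than in macrophages alone. The causes of these changes were not tested.

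Leaving out 1 library in turn gave 2 to 7 lower messenger RNAs and 0 to 1 higher transfer RNAs at 45 min against macrophages alone, 1 to 2 higher transfer RNAs at 180 min against macrophages alone and at 90 min against 45 min, 1 to 2 higher ribosomal RNAs at 180 min against 90 min, and 0 to 1 higher transfer RNAs at 180 min against 45 min. As percent of nuclear protein-coding counts, messenger RNAs came to 0.190 at 45 min and 0.352 at 90 min, ribosomal RNAs to 4.55, 3.58, 6.15 and 7.33 in macrophages alone and at 45, 90 and 180 min, and all mitochondrial genes to 4.78, 3.77, 6.50 and 7.81. The transfer RNA results rest on 670 counts or fewer per gene, and 25 of the 37 genes were too low to test.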
